A study of Mus musculus with 6 samples.

Results

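The 34 genes described here mark the cells that make myelin in the brain, from the dividing precursor to the mature oligodendrocyte. They were taken from a list of names that was chosen with earlier results of these data known. Each was represented by its brightest probe set, judged by the average of the 6 arrays among probe sets annotated to a single gene, which gave a value for 32 of the 34, out of 18193 genes in all. Enpp2 and Trf were not analysed here (for Trf, the probe set is annotated to Srprb as well). Of the 32 genes, 21 belong to mature oligodendrocytes and their myelin, and 11 to precursors, newly formed cells and the transcription factors of the lineage.

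RNA came from the hippocampus of adult male mice of C57B6xCBA background, with 3 wild type littermates and 3 mice homozygous for the transgene of line L26. The transgene encodes daDREAM, a dominant active form of the calcium-sensitive repressor DREAM. L26 is a single transgenic line, and the promoter that drives its transgene is not given in the sources used here. Each animal sample was read on 1 Affymetrix Mouse Genome 430 2.0 array, and the series describes the 3 hybridizations of a group as independent biological replicates. The comparison asks how basal transcript levels of these genes differ between the groups.

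Oligodendrocyte precursors carry the receptor Pdgfra and the proteoglycan Cspg4. As they leave the cell cycle they pass through a short newly formed stage, and then wrap axons with a membrane rich in cholesterol, galactolipids and a small set of abundant proteins. Sox10, Olig1 and Olig2 act through the lineage, and Myrf switches on the genes of the mature cell. In the hippocampus much of the myelin lies in the fiber tracts that border it, the alveus and the fimbria.

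Array medians ran from 7.27 to 7.32 on the log2 scale, and correlations over genes lay between 0.995 and 0.998 for any 2 arrays. Of the 18193 genes, 478 (2.63%) were higher and 467 (2.57%) lower in L26 at an adjusted p under 0.05, together 5.19%. With each array centred on its median the split was 382 higher and 690 lower. At an unadjusted p under 0.05 in limma without this centring, 2055 of the 18193 genes were higher and 1643 lower. Markers of hippocampal neurons were present, for example Neurod6 at 12.06 and Wfs1 at 11.06 in wild type, where the lower quartile of all probe sets is 5.95. Of 3 measured Schwann cell genes, which would mark peripheral myelin, 0 passed in limma (0 higher and 1 lower at an unadjusted p under 0.05). Pmp2 averaged 7.21 in wild type and 7.18 in L26, Cdh19 averaged 8.05 and 7.98, and Egr2, which active neurons also express, averaged 7.39 and 6.21 (difference -1.18, adjusted p = 0.0761) without overlap.

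In L26, 17 of the 32 genes were higher and 0 were lower past the threshold, against 2.63% and 2.57% of all genes. The median difference was 0.31 on the log2 scale, and 0.01 over all genes. The largest rises were those of Mal, Gsn and Tspan2, each about 1.5-fold (1.58-fold, 1.53-fold and 1.51-fold). Of the 21 mature genes 11 rose (median difference 0.34), and of the 11 precursor and lineage factor genes 6 rose (median 0.31), namely 4 lineage factors, Gpr17 and Bcas1. The mean was higher in L26 for 30 of the 32 (all genes, 53.1%), and the 3 L26 values all lay above the 3 wild type values for 21 of the 32, where 13% of all genes did so. At an unadjusted p under 0.05, 21 were higher and 0 lower in limma, where 2055 and 1643 of the 18193 genes were. The count of 17 fell with any array left out, least without L26 replicate 1. It was 3 without L26 replicate 2, 3 without L26 replicate 3 and 5 without wild type replicate 1. It was 7 without wild type replicate 3 (6 of the 17 and Cryab), 9 without wild type replicate 2 and 15 without L26 replicate 1. In the same order, 180, 183, 248, 335, 243 and 358 of all genes were higher, against 478 with all 6 arrays. In bulk tissue a larger number of cells of a type and more RNA per cell cannot be told apart.

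**Figure D1:**
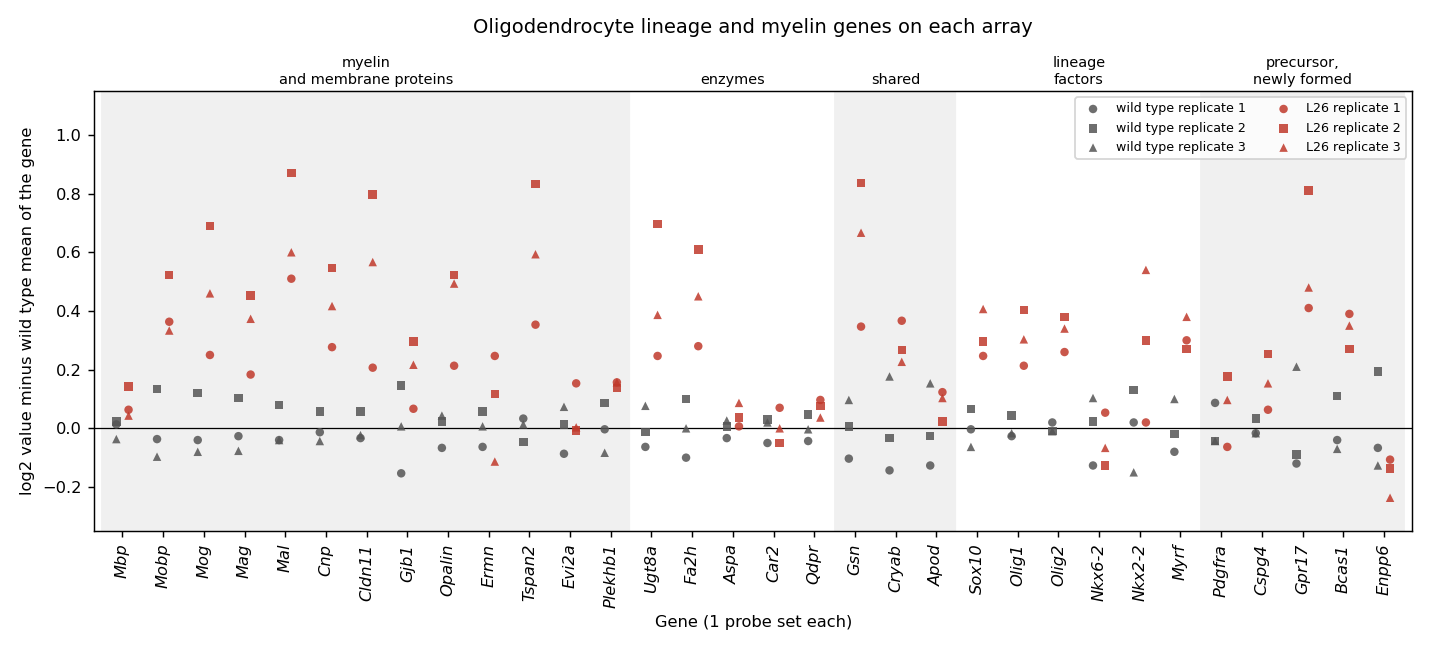
Values of the 32 genes on each of the 6 arrays, as log2 value minus the wild type mean of the same gene (vertical axis), with genes grouped by role along the horizontal axis. Grey symbols are wild type arrays and red symbols L26 arrays, and the symbol shape gives the replicate number. For Mal, Tspan2 and Cldn11 all L26 points lie above all wild type points, while those of Aspa, Car2 and Nkx6-2 mix.

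Among the 13 genes of compact myelin and its membrane proteins, 8 rose, 0 fell and 5 did not pass. Mal, a proteolipid with a role in sorting membrane in myelinating cells, read 11.88, 12 and 11.88 on the wild type arrays and 12.43, 12.79 and 12.52 on the L26 arrays. The lowest L26 array lay clearly above the highest wild type array. The difference was 0.66 (SE 0.09, adjusted p = 0.00493, limma), and Mal was the only member whose call held in all 16 alternatives. Tspan2, a tetraspanin of the oligodendrocyte membrane, read 11.11, 11.03 and 11.09 in wild type and 11.43, 11.91 and 11.67 in L26, a difference of 0.59 (SE 0.11, adjusted p = 0.0149). Cldn11, which forms the tight junctions between myelin layers, read 10.76, 10.85 and 10.77 in wild type and 11, 11.59 and 11.36 in L26, a difference of 0.52 (SE 0.13, adjusted p = 0.0492). For both, the groups did not overlap and the L26 arrays were spread far more widely than the wild type arrays (SD 0.24 against 0.04 for Tspan2 and 0.30 against 0.05 for Cldn11).

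The sequences just upstream of the start of Mal, Tspan2, Cldn11 and Olig2 are shown because these genes rose together, being the 3 mature genes with the largest rises that have 1 or 2 start windows in the RefSeq promoter table and the lineage factor with the largest rise. Each is the 250 bases before the gene's start on GRCm38.p6, at chr2:127656696-127656945 (minus strand) for Mal, chr3:102734520-102734769 (plus strand) for Tspan2, chr3:31149670-31149919 (plus strand) for Cldn11 and chr16:91225300-91225549 (plus strand) for Olig2. Capitals mark GTCA on either strand (TGAC on the strand printed), the core of the element that DREAM binds.
Mal: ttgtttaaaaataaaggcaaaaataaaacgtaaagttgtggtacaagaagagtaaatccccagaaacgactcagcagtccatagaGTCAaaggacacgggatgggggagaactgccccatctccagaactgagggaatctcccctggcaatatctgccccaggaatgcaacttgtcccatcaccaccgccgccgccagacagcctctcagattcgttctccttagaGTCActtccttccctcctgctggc
Tspan2: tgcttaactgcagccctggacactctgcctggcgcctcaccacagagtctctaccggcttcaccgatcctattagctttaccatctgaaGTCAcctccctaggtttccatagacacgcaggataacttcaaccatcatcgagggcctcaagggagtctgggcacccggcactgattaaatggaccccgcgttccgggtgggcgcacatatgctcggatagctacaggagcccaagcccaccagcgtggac
Cldn11: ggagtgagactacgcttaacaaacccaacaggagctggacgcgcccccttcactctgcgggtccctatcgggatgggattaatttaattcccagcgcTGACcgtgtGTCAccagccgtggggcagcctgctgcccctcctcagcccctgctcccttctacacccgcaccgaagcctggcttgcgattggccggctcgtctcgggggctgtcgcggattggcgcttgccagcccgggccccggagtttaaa
Olig2: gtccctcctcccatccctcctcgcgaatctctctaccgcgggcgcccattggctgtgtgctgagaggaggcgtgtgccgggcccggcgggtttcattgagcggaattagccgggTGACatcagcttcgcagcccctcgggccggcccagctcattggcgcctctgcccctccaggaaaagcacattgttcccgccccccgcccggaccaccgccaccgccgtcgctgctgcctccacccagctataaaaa
GTCA occurs 2 times upstream of Mal, 2 times upstream of Cldn11 and 1 time each upstream of Tspan2 and Olig2. The core is so short that 80.2% of all 32851 windows of this length hold it, and it was in 24 of the 31 windows (77.4%) of the 22 members that the table lists. ACAANG, which SOX factors can bind, was in 16 of these 31 windows (51.6%) and in 36.3% of all windows, and CANNTG, the E-box that OLIG factors can bind, in 21 of 31 (67.7%) and in 66.2%. Both strands were searched, and a match describes letters only.

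Mobp, a basic protein of compact myelin, read 12.91, 13.08 and 12.85 in wild type and 13.31, 13.47 and 13.28 in L26, a difference of 0.41 (SE 0.08, adjusted p = 0.0196). Cnp, the phosphodiesterase of the cytoplasmic channels of myelin, read 13.24, 13.31 and 13.21 in wild type and 13.53, 13.80 and 13.67 in L26, a difference of 0.41 (SE 0.07, adjusted p = 0.0147). In both genes the 2 groups were apart on every array. Mog and Mag, glycoproteins of the outermost and the innermost myelin membrane, followed the same order. Mog read 9.53, 9.69 and 9.49 in wild type and 9.82, 10.26 and 10.03 in L26, a difference of 0.47 (SE 0.11, adjusted p = 0.0394). Mag read 10.88, 11.01 and 10.83 in wild type and 11.09, 11.36 and 11.28 in L26, a difference of 0.34 (SE 0.08, adjusted p = 0.047), with its lowest L26 array only a little above its highest wild type array. Opalin, a glycoprotein that appears late in differentiation, read 9.76, 9.85 and 9.87 in wild type and 10.04, 10.35 and 10.32 in L26, a difference of 0.41 (SE 0.08, adjusted p = 0.0273). Of the 8 calls in this role, 6 were lost without L26 replicate 2 (adjusted p from 0.0505 to 0.148), 6 without L26 replicate 3 (0.0629 to 0.157), 6 without wild type replicate 3 (0.0526 to 0.124), 5 without wild type replicate 1 (0.054 to 0.106) and 4 without wild type replicate 2 (0.0504 to 0.092). Mag and Cldn11 also missed the threshold with median-centred arrays (0.0561 at most) or adjusted over all probe sets (0.0556 at most).

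The other 5 genes of this role did not pass. Mbp, the myelin basic protein gene and a main constituent of compact myelin, read 14.54, 14.55 and 14.49 in wild type and 14.59, 14.67 and 14.57 in L26, a difference of 0.08 (95% interval -0.04 to 0.20, adjusted p = 0.429). Its groups did not overlap. This probe set is brighter than nearly every other gene on the arrays (percentile 99.98 of the gene means). The gap junction gene Gjb1 had 0.19 (95% interval -0.004 to 0.39), and Plekhb1, a membrane-associated protein gene, had 0.15 (0.02 to 0.28), with groups that did not overlap. Ermn, of a cytoskeletal protein of the myelin sheath, had 0.08 (-0.12 to 0.28) and Evi2a had 0.05 (-0.10 to 0.20). For Ermn the L26 arrays read 10.86, 10.73 and 10.50, on either side of the wild type arrays at 10.55, 10.67 and 10.62. A second Ermn probe set, nearly as bright with a wild type mean of 10.31, was higher by 0.26, and its groups did not overlap. That probe set did not pass either (adjusted p = 0.116 over all probe sets, limma).

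**Figure D2:**
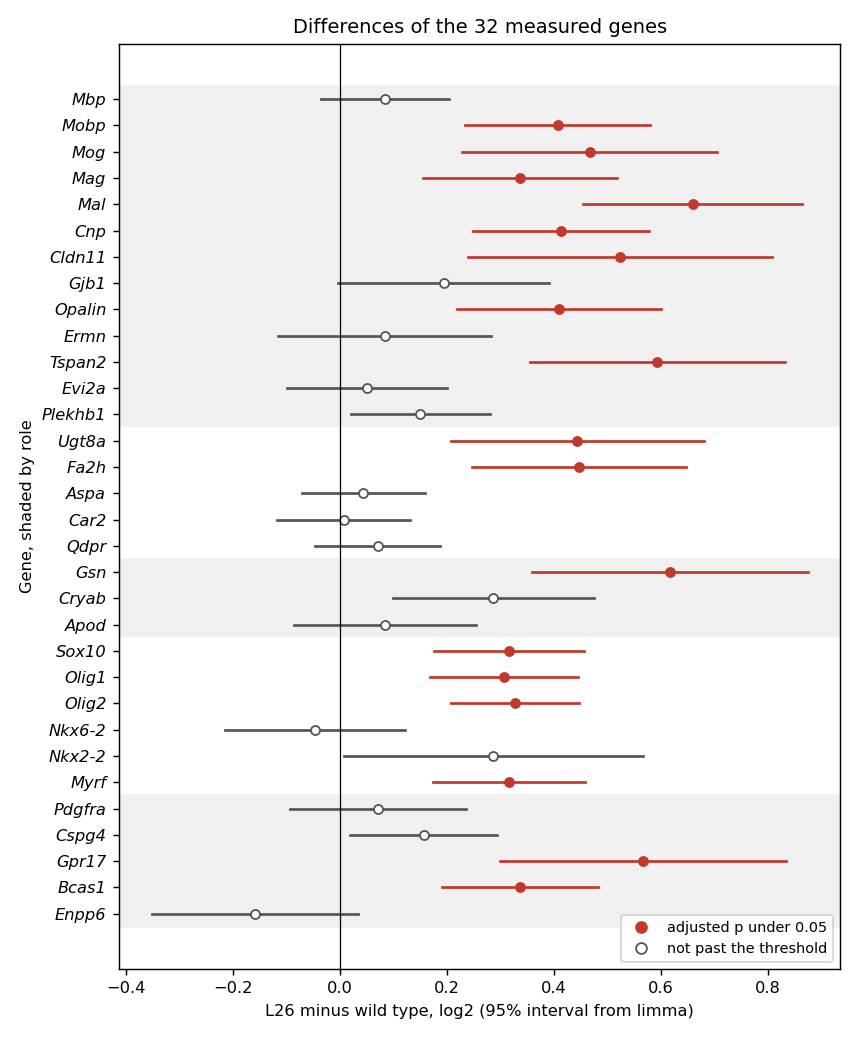
Difference between L26 and wild type of each of the 32 genes on the log2 scale (horizontal axis) with its 95% interval from limma, in the order of roles (vertical axis, shaded by role). Filled red points are the 17 genes past an adjusted p of 0.05 and open points the 15 that did not pass, and the rises lie between 0.31 (Olig1) and 0.66 (Mal).

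Of the 5 measured enzyme genes 2 rose, 0 fell and 3 did not pass. Ugt8a and Fa2h make the galactolipids of myelin, Ugt8a by adding galactose to ceramide and Fa2h by hydroxylating the fatty acid. Ugt8a read 11.05, 11.10 and 11.19 in wild type and 11.36, 11.81 and 11.50 in L26, a difference of 0.44 (SE 0.10, adjusted p = 0.0459). Fa2h read 9.96, 10.16 and 10.06 in wild type and 10.34, 10.67 and 10.51 in L26, a difference of 0.45 (SE 0.09, adjusted p = 0.0238). In both, every L26 array was above every wild type array. Aspa, which cleaves N-acetylaspartate, had a difference of 0.04 (95% interval -0.07 to 0.16), the carbonic anhydrase gene Car2 had 0.01 (-0.12 to 0.13), and Qdpr, which regenerates tetrahydrobiopterin, had 0.07 (-0.05 to 0.19). In these 3 the groups overlapped, and the upper ends of their intervals lie below the rises of Ugt8a and Fa2h, though the difference between genes was not tested.

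Of the 3 measured genes that other brain cells also express, Gsn rose. Gsn encodes gelsolin, which severs actin filaments, and read 10.29, 10.40 and 10.49 in wild type and 10.74, 11.23 and 11.06 in L26, a difference of 0.62 (SE 0.11, adjusted p = 0.0176) without overlap. Cryab, a small heat shock protein gene, read 11.15, 11.26 and 11.47 in wild type and 11.66, 11.56 and 11.52 in L26. Its groups did not overlap, but the difference of 0.29 (SE 0.08, adjusted p = 0.0885) did not pass, and Cryab passed without wild type replicate 3 (0.38, adjusted p = 0.0324). Apod, a lipid-binding apolipoprotein gene, had 0.08 (95% interval -0.09 to 0.25). Of the calls of Ugt8a, Fa2h and Gsn, all 3 were lost without L26 replicate 2 (adjusted p from 0.0543 to 0.077) and without L26 replicate 3 (0.0792 to 0.114), those of Fa2h and Ugt8a without wild type replicate 1 (0.0638 and 0.107) or 3 (0.0667 and 0.0798), and that of Ugt8a without wild type replicate 2 (0.111) or adjusted over all probe sets (0.0514).

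Of the 6 lineage transcription factors, 4 rose, 0 fell and 2 did not pass. Olig2, a basic helix-loop-helix factor that sets up the lineage, read 8.89, 8.86 and 8.86 in wild type and 9.13, 9.25 and 9.21 in L26, a difference of 0.33 (SE 0.05, adjusted p = 0.0103). Its relative Olig1 read 11.90, 11.97 and 11.91 in wild type and 12.14, 12.33 and 12.23 in L26, a difference of 0.31 (SE 0.06, adjusted p = 0.0249). Both sets of arrays were tight and well apart. Olig1 and Olig2 lie next to each other on chromosome 16, with 0 protein-coding genes between them in RefSeq, and no other 2 listed genes are separated by fewer than 51. Sox10, which acts with both in differentiation, read 9.42, 9.49 and 9.36 in wild type and 9.67, 9.72 and 9.83 in L26, a difference of 0.32 (SE 0.06, adjusted p = 0.023). Myrf, the factor that activates myelin genes in mature cells, read 9.37, 9.43 and 9.55 in wild type and 9.75, 9.72 and 9.83 in L26, a difference of 0.32 (SE 0.06, adjusted p = 0.0241). The 4 rises were of nearly the same size, from 0.31 to 0.33.

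The homeobox gene Nkx2-2, which acts as precursors begin to differentiate, read 7.24, 7.35 and 7.07 in wild type and 7.24, 7.52 and 7.76 in L26. Its difference of 0.29 (SE 0.12, adjusted p = 0.235) did not pass, and the L26 arrays were spread from the level of wild type upwards. Nkx6-2, a homeobox gene of maturing oligodendrocytes, read 6.65, 6.80 and 6.88 in wild type and 6.83, 6.65 and 6.71 in L26, a difference of -0.05 (95% interval -0.21 to 0.12) with full overlap. Of the 4 calls, all were lost without L26 replicate 2 (adjusted p from 0.0505, for Olig2, to 0.0905), those of Sox10, Olig1 and Myrf without L26 replicate 3 (0.0862 to 0.0976) or wild type replicate 1 (0.0568 to 0.0678), those of Olig1 and Myrf without wild type replicate 2 (0.0512 and 0.0739), those of Sox10 and Olig1 without wild type replicate 3 (0.0707 and 0.0718), and that of Myrf without L26 replicate 1 (0.0598).

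Genes of precursors and newly formed cells gave mixed values, with 2 of 5 higher, 0 lower and 3 not past the threshold. Gpr17, a receptor found on cells between precursor and mature oligodendrocyte, read 9.18, 9.21 and 9.51 in wild type and 9.71, 10.11 and 9.78 in L26, a difference of 0.57 (SE 0.12, adjusted p = 0.0295). Bcas1, which marks newly formed myelinating cells and stays in myelin, read 12.13, 12.28 and 12.10 in wild type and 12.56, 12.44 and 12.52 in L26, a difference of 0.34 (SE 0.06, adjusted p = 0.021). Both had every L26 array above every wild type array. Enpp6, a choline phosphodiesterase of newly formed cells, read 6.42, 6.68 and 6.36 in wild type and 6.38, 6.35 and 6.25 in L26. Its difference was -0.16 (95% interval -0.35 to 0.03), at a low level (percentile 23.6 of the gene means). Of the 3 genes of the newly formed stage, 2 thus rose and 1, this dim one, had a lower mean.

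The genes that define the precursor itself did not pass. Pdgfra, the receptor for the growth factor that drives precursor division, read 10.32, 10.19 and 10.19 in wild type and 10.17, 10.41 and 10.33 in L26, a difference of 0.07 (95% interval -0.09 to 0.23) with overlapping groups. Cspg4, the proteoglycan NG2, which pericytes also make, read 7.84, 7.89 and 7.84 in wild type and 7.92, 8.11 and 8.01 in L26. On this probe set the groups of Cspg4 did not overlap, and the difference of 0.16 (95% interval 0.02 to 0.29, adjusted p = 0.187) did not pass. The other Cspg4 probe set, at a similar level (wild type mean 7.74), differed by only -0.007, and its groups overlapped. The pericyte gene Pdgfrb was higher by 0.68 (SE 0.08, adjusted p = 0.00238) on the same arrays, and its part in the Cspg4 value was not tested. The calls of Gpr17 and Bcas1 were lost without L26 replicate 3 (adjusted p of 0.0764 and 0.0826) or wild type replicate 1 (0.0586 to 0.0784), that of Gpr17 without wild type replicate 2 (0.0861) or L26 replicate 2 (0.0778), and that of Bcas1 without wild type replicate 3 (0.0661) or L26 replicate 1 (0.0666).

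Across the 6 arrays, mature genes averaged 11.26, 11.36 and 11.32 in wild type and 11.53, 11.71 and 11.60 in L26. The precursor and lineage factor genes averaged 9.03, 9.10 and 9.06 in wild type and 9.23, 9.33 and 9.31 in L26. Both averages were thus higher on every L26 array. The gap between the averages ran from 2.22 to 2.26 on the wild type arrays and from 2.29 to 2.38 on the L26 arrays, a mean difference of 0.08 that was not tested. Of the 17 genes that rose, 14 were highest in L26 replicate 2 within their group and 14 were lowest in L26 replicate 1, where these arrays were highest and lowest for 26.2% and 31.2% of all genes. The rising genes also varied more within L26 than within wild type. The SD was larger in L26 for 14 of these 17 and for 8 of the 15 that did not pass, against 46.6% of all genes, and the median SD of the 17 was 0.17 in L26 and 0.07 in wild type.

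The 32 genes have 70 probe sets, and 19 genes have more than 1. Adjusted over all 45037 probe sets, 23 of the 70 were higher and 0 lower, where 1.98% and 1.94% of all probe sets were. Tspan2 rose on each of its 3 probe sets (0.52 to 0.59), Mal on each of 2 (0.63 and 0.66), Cnp on 2 of 3 (0.41 to 0.57 over the 3) and Gsn on 4 of 6. Gsn differed by 0.62 to 0.72 on those 4, by 0.27 on a dimmer one and by -0.21 on the dimmest, which read 6.78 in wild type. Mobp passed on 2 of 5, its brightest probe set and, by more (0.63), another that went from 9.78 to 10.41. Of the others, 2 bright ones at 12.31 and 11.87 in wild type differed by 0.35 and 0.41 without overlap. These did not pass (adjusted p of 0.109 and 0.0674 over all probe sets, limma), and the dimmest Mobp probe set had 0.07 at a level of 6.93. For Sox10, 2 of 3 probe sets rose, by 0.32 and 0.27, and the dimmest had 0.07.

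Other genes were called on a single probe set. The second Opalin probe set had 0.07 at a wild type level of 5.53, below the lower quartile of 5.95. Bcas1 had 0.09 and 0 on its 2 other probe sets, which read 6.06 and 6.07 in wild type. With the mean of all probe sets standing for a gene, Opalin (0.24, adjusted p = 0.0616), Bcas1 (0.14, adjusted p = 0.197), Sox10 (0.22, adjusted p = 0.0577) and Ugt8a (0.40, adjusted p = 0.0701) missed the threshold. The 8 Mbp probe sets spread from -0.10 to 0.23 and none passed, though on 5 of them every L26 array lay above every wild type array. Its 6 bright ones, at 13.60 to 14.53 in wild type, differed by 0.08 to 0.23, and the 2 dimmer ones, at 9.19 and 10.18, by -0.10 and -0.05.

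**Figure D3:**
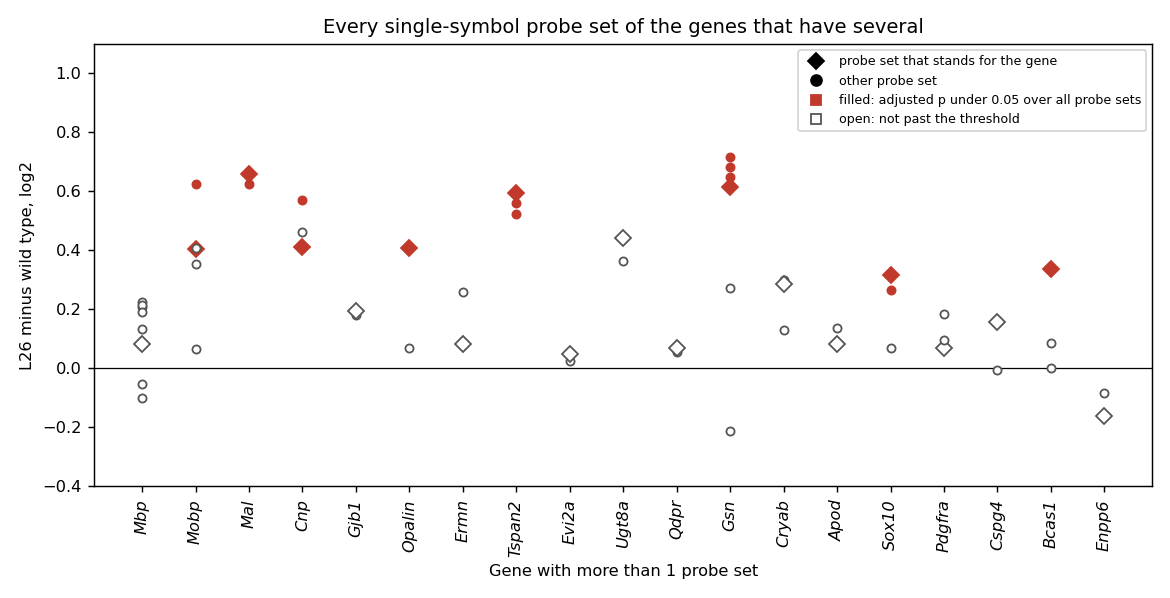
Difference between L26 and wild type on the log2 scale (vertical axis) for every single-gene probe set of the 19 genes that have more than 1 (horizontal axis). Diamonds are the probe sets that stand for the genes, circles the others, and filled red symbols those past an adjusted p of 0.05 over all probe sets. The Tspan2 and Mal probe sets lie close together, while those of Gsn run from -0.21 to 0.72.

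Of 38 further genes of myelin and mature oligodendrocytes measured, 6 rose (15.8%, against 2.63% of all genes), 1 fell and 31 did not pass, with a median difference of 0.09. The mean was higher in L26 for 24 of them and lower for 14 (all genes, 53.1% higher). Nfasc, which holds the paranodal junctions of myelinated axons and is also made by neurons, rose by 0.37 (SE 0.06, adjusted p = 0.00824), from 9.95 to 10.32. Ndrg1, a gene of the myelinating cell cytoplasm, rose by 0.27 (SE 0.05), Nipal4 by 0.27 (SE 0.05) and the semaphorin receptor gene Plxnb3 by 0.23 (SE 0.05). Nipal4 was dim (wild type mean 6.33, percentile 24.5 of the gene means), and its call was lost whichever array was left out. Phldb1 and Prr18 also rose, by 0.27 and 0.31, and Il33 was the only one to fall (these 3 were picked after their values were seen). Il33, a nuclear cytokine of oligodendrocytes and astrocytes, read 10.54, 10.56 and 10.60 in wild type and 10.22, 9.40 and 9.76 in L26, a difference of -0.77 (SE 0.17, adjusted p = 0.0328), which puts L26 replicate 2, highest for most rising genes, lowest here. The deacetylase gene Sirt2 had 0.23 (adjusted p = 0.0672) and Gal3st1, which makes sulfatide, had 0.22 (adjusted p = 0.0701). Nfasc kept its call without any single array, while 6 of the 7 were lost without L26 replicate 2 (adjusted p up to 0.16), L26 replicate 3 (0.13) or wild type replicate 1 (0.106), 5 without wild type replicate 3 (0.123), and 4 without wild type replicate 2 (0.091) or L26 replicate 1 (0.11). Without probe sets ending in _x_at or _s_at the calls of Plxnb3, Phldb1 and Prr18 were lost (adjusted p from 0.0502 to 0.322), with the mean of all probe sets those of Nipal4 and Plxnb3 (0.0641 to 0.0833), with an intensity trend and robust prior that of Il33 (0.0918), and with median-centred arrays or adjusted over all probe sets that of Prr18 (0.0698 and 0.0598).

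Of 17 further genes of precursors and early differentiation, 2 rose (11.8%), 0 fell and 15 did not pass, with a median of 0.06. At an unadjusted p under 0.05, 4 were higher and 1 lower in limma. Cnksr3, a scaffold gene, rose by 0.36 (SE 0.07, adjusted p = 0.0233), and Sulf2, an extracellular sulfatase gene, by 0.30 (SE 0.07, adjusted p = 0.0414) (0.16, adjusted p = 0.199, as the mean of its probe sets). Myt1, a zinc finger factor of precursors and neurons, had 0.17 (adjusted p = 0.123) and Lhfpl3, a precursor marker, had -0.16 (adjusted p = 0.175). Both calls were lost without L26 replicate 2 (adjusted p up to 0.126), L26 replicate 3 (0.11), wild type replicate 1 (0.0836) or wild type replicate 2 (0.124), and that of Sulf2 without wild type replicate 3 (0.0682), with median-centred arrays (0.0524) or adjusted over all probe sets (0.0515).

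Among 32 ligands, receptors and inhibitors that act on myelination, 4 rose (12.5%), 1 fell and 27 did not pass, with a median of 0.06. The nuclear receptor gene Rxrg, whose product promotes differentiation of precursors, rose by 0.49 (SE 0.07, adjusted p = 0.00759), from 7.58 to 8.06. Erbb3, a neuregulin receptor gene of the lineage, rose by 0.50 (SE 0.10, adjusted p = 0.0262). As the mean of its probe sets Erbb3 did not pass (0.26, adjusted p = 0.154), and it was picked after its value was seen. Adgrg1, an adhesion receptor gene that keeps precursors dividing, rose by 0.45 (SE 0.07), and Fgfr1 by 0.28 (SE 0.05). Sema3a, whose secreted product repels precursors, fell by 0.48 (SE 0.08, adjusted p = 0.0129), from 8.21 to 7.73. Cxcr4 had 0.26 (adjusted p = 0.0583) and Erbb2 had 0.20 (adjusted p = 0.123). The calls of Adgrg1, Sema3a, Fgfr1 and Erbb3 were lost without L26 replicate 3 (adjusted p from 0.0562 to 0.093), those of Fgfr1 and Erbb3 without L26 replicate 2 (0.0571 and 0.0972), that of Fgfr1 without wild type replicate 3 (0.0509), and that of Erbb3 without wild type replicate 1 (0.0546) or 2 (0.0656). Without probe sets ending in _x_at or _s_at, Adgrg1 had 0.30 (adjusted p = 0.118) and did not pass.

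Myelin also draws on lipid synthesis. Of 18 genes of sphingolipid and fatty acid synthesis and turnover, 2 rose (11.1%, against 2.63% of all genes), 0 fell and 16 did not pass, and at an unadjusted p under 0.05, 4 were higher and 1 lower. Elovl1, of an elongase that lengthens very long chain fatty acids, rose by 0.37 (SE 0.07, adjusted p = 0.0232), and Cers2, of a synthase that joins such fatty acids into ceramide, by 0.37 (SE 0.08, adjusted p = 0.0289). The desaturase gene Scd1 had 0.21 (adjusted p = 0.1) and the elongase gene Elovl6 had 0.17 (adjusted p = 0.132). The calls of Elovl1 and Cers2 were lost without L26 replicate 2 (adjusted p up to 0.106), L26 replicate 3 (0.113), wild type replicate 1 (0.0786) or wild type replicate 2 (0.0625), and that of Cers2 without wild type replicate 3 (0.0581). Of 16 genes of cholesterol synthesis, 0 rose and 0 fell in limma, with 2 higher and 2 lower at an unadjusted p under 0.05 and a median of -0.04. Fdft1, squalene synthase, had -0.19 (adjusted p = 0.115) and Sc5d, a sterol desaturase gene, had 0.22 (adjusted p = 0.125).

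Markers of other cells moved on the same arrays, where 2.63% of all genes rose and 2.57% fell. Among the 13 measured markers of blood vessels, 8 rose (61.5%, against 53.1% of the members) and 0 fell. Their mean level per array was 8.58 to 8.63 in wild type but 9.01 to 9.10 in L26, with Cldn5 of brain endothelium higher by 0.95 (SE 0.08). Of 8 leptomeningeal markers 2 rose (Col3a1 and Slc6a13), and the mean of the 8 was 8.39 to 8.70 in wild type against 8.76 to 9.0 in L26. Of 11 microglia markers 4 rose and 1 fell, with means of 9.46 to 9.53 in wild type against 9.57 to 9.64 in L26, and of 12 astrocyte markers 0 rose and 1 (S100b) fell (2 were higher and 1 lower at an unadjusted p under 0.05). Of 13 neuron markers 0 rose and 0 fell in limma (0 higher and 2 lower at an unadjusted p under 0.05), and their mean was 12.47 to 12.56 in wild type against 12.46 on every L26 array. Of 10 hippocampal neuron markers 3 rose (Iyd, Fibcd1 and C1ql2) and 0 fell, the mean being 9.79 to 9.83 in wild type against 10.03 to 10.11 in L26. The mean of 8 choroid plexus markers, of which 0 rose and 1 (Kcne2) fell, spread over 9.10 to 9.91 in wild type against 9.06 to 10.06 in L26, lowest in L26 replicate 2, where the mature oligodendrocyte genes were highest. The part of these markers in the values of the oligodendrocyte genes was not tested.

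**Figure D4:**
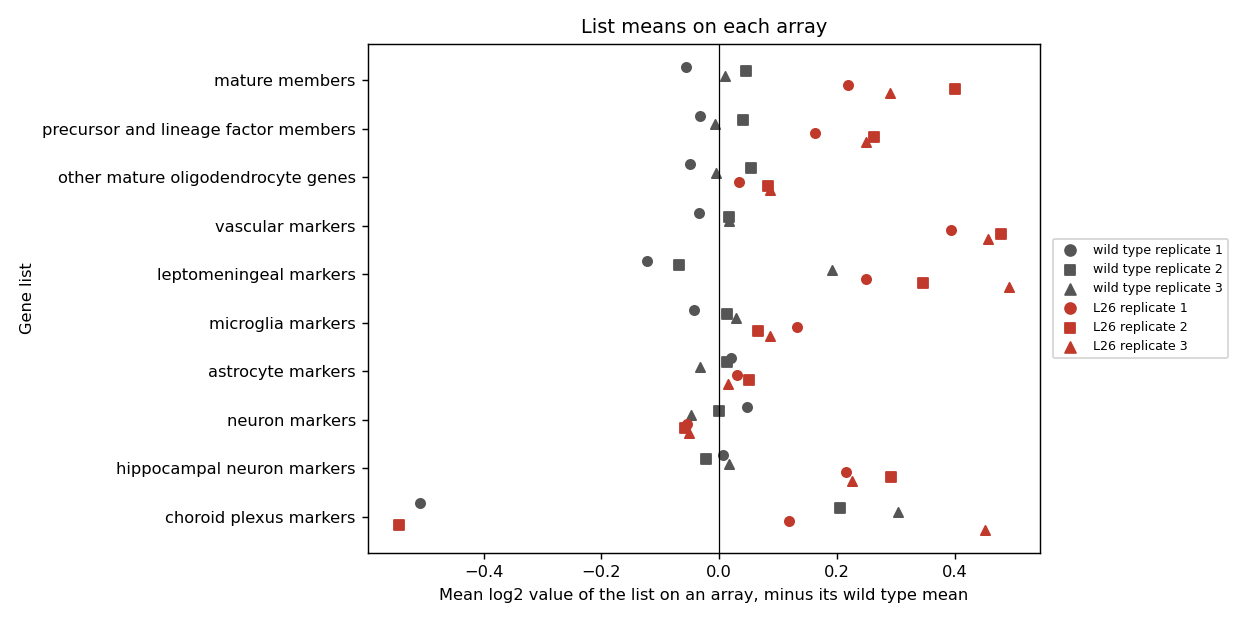
Mean log2 value of each gene list (vertical axis) on each of the 6 arrays, minus the wild type mean of that list (horizontal axis), with wild type arrays in grey, L26 arrays in red and the symbol shape giving the replicate number (symbols are shifted slightly up or down within a list for legibility). The 21 mature and the 11 precursor and lineage factor genes ("members") are higher on every L26 array. So are the vascular, leptomeningeal, microglia and hippocampal neuron markers. The means of the 38 other mature oligodendrocyte genes overlap between the groups (before subtraction, 9.10 to 9.20 in wild type and 9.18 to 9.23 in L26). The neuron markers are slightly lower, and choroid plexus markers spread widely in both groups.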

How the data were processed

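Hippocampal RNA of 6 mice, 3 wild type and 3 L26, was measured on 1 array each. The authors deposited log2 expression values, made with RMA and the affy package per the submitters' processing notes (no versions are named there). This method in general corrects background, makes the arrays' distributions alike by quantile normalization and combines the probes of a set. Arrays have no read depth, so their number limits the precision.

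Of 45101 probe sets, 64 array controls were left out. Of the other 45037, 34945 carry 1 gene symbol in the platform annotation, 932 several and 9160 none. Names and promoters come from RefSeq (GRCm38.p6), whose promoter table lists 22 of the members. limma 3.58.1 (R 4.3.3; lmFit, eBayes, two-sided) was fitted to all 18193 genes with Benjamini-Hochberg adjustment over them and a threshold of 0.05. SE and 95% intervals come from that fit. The fit was first tested on simulated data. It recovered 62% of 50 simulated differences of 0.3 and 100% of those of 0.5, 1 and 2, with 14 false calls among 195. A true difference near 0.3 can thus fail to pass.

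Lists, members and tests were chosen with earlier results of these data known. By rule every member is described, with up to 4 called and 2 uncalled genes of every other list of the pathway. Same-numbered arrays did not deviate together (r = 0.03, -0.09 and 0.16 across genes), so the numbers were not used as pairs.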

Additional observations from a re-analysis of the deposited data

How the results depend on the processing

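None of the 17 rises changed sign in any of the 16 alternatives, and 0 members fell in any of them, but most calls lie near the threshold: 1 of the 17 was kept in every alternative, 2 were lost in 1 and 10 in 5 or more. Leaving out 1 array gave 3 to 15 members higher, where 180 to 358 of all genes were higher. Among members these were 2 to 11 of the mature genes and 1 to 4 of the precursor and lineage factor genes. The median difference was then 0.30 to 0.41 for mature and 0.27 to 0.33 for precursor and lineage factor genes. With the replicate number as a block, 13 members passed, among them 10 mature genes and 3 (in place of 6) precursor and lineage factor genes, where Gpr17, Bcas1 and Sox10 were lost as well as Ugt8a among mature genes. The block also lost 4 of the 7 calls among further mature genes (adjusted p from 0.0549 to 0.0758), Sulf2 (0.0937) and Fgfr1 (0.0501). The numbers are not known to pair the animals. Averaging every probe set of a gene lowered the medians to 0.24 for mature and 0.22 for precursor and lineage factor genes. Repeated quantile normalization, removal of the dimmest 40% of probe sets, array weights and removal of probe sets ending in _x_at or _s_at each lost 0 of the 17 members' calls. Enpp6 had no value after the dimmest probe sets were removed. Adjusted over the probe sets 14 passed, and at a threshold of 0.1 there were 18. The cause of these shifts was not tested, and a fit with 1 array left out also has fewer degrees of freedom. Values near background and those at the top of the scale, as for Mbp, can limit what arrays show, but their part here was not tested.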
